A study of Mus musculus with 7 samples.

Results

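The T helper 1 (Th1) program is described here through 10 genes, chosen by name: the transcription factors Tbx21, Runx3, Id2 and Hopx, the receptor chains Il12rb1, Il12rb2, Il18r1 and Il18rap, the cytokine Ifng and the chemokine Ccl5. They are 10 of the 55364 genes in the count table, each was found once by its gene symbol, and all 10 passed the filter on low counts that kept 9854 genes for testing. The cells were CD45+CD3+CD4+ T cells sorted from lung tumours grown orthotopically in tamoxifen-treated C57BL/6 mice, all over 8 weeks old. The Control group (5 libraries) had the genotype I-AbF/F, in which an MHC class II gene is flanked by loxP sites. The Cre group (2 libraries) had the genotype I-AbF/FCol1a2-cre, in which Cre is driven by the promoter of the collagen gene Col1a2, so that fibroblasts, and not the sorted T cells, were meant to lose the gene. The comparison asks whether intratumoral CD4 T cells express other genes when fibroblasts cannot present antigen on MHC class II.

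Th1 cells are the CD4 T cells that secrete interferon-gamma and activate macrophages and cytotoxic responses. Interleukin-12 signals through the chains encoded by Il12rb1 and Il12rb2 to STAT4, interleukin-18 signals through those of Il18r1 and Il18rap to MyD88, and both routes raise Ifng in cells that hold T-bet, the product of Tbx21. RUNX3 acts with T-bet at Ifng, while ID2 and HOPX are regulators without a DNA-binding function of their own that mark differentiated effector cells.

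Transcripts were counted at their 3′ ends. The Control libraries held 1484655 to 1724346 counts, and Cre replicates 1 and 2 held 1929899 and 1449739. Levels are given as CPM, the field's usual count per library total, on one scale in every library. Where a library has no count, up to 3 remain possible, or 1.55 to 2.07 CPM, and this limit covers counting error only. Of the tested genes, 1.14% to 16.1% had no count in a Control library, against 25.01% and 33.6% in Cre replicates 1 and 2. The design text calls the mice matched for gender, yet counts of sex-linked genes differed between libraries. Those of Xist were 340, 16, 76, 266 and 476 across Control replicates 1 to 5 and 1 and 86 in Cre. Those of the Y-linked Ddx3y were 1, 34, 141, 2 and 0 across Control and 76 and 89 in Cre. The part of sex in the comparison was not tested. The labels do not say whether each library is 1 mouse, so the p-values measure the spread between these libraries. All 10 CD4 T cell markers on the list used here had counts in both groups, and they summed to 4492 to 5914 CPM across Control and to 5963 and 6282 CPM in Cre. Lat, Trbc1 and Trbc2 make up most of these sums, and Cre replicate 2 had the fewest counts of all libraries for Cd3e (3, against 51 to 405 in Control), Cd3g (42, against 69 to 496) and Cd2 (48, against 151 to 648). CD8 T cell markers (Cd8a, Cd8b1, Crtam) summed to 0 to 11.9 CPM across Control and to 0.518 and 0.69 CPM in Cre. In bulk libraries such as these, fewer cells of a type and less RNA per cell cannot be told apart.

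No Th1 program gene passed the test between Cre and Control. With edgeR's quasi-likelihood test and Benjamini-Hochberg adjustment over all tested genes, 0 of 10 were called higher and 0 lower, where 0% and 0.0101% of all tested genes were called. At an unadjusted p under 0.05 the counts were 0 higher and 1 lower (Id2), against 1.41% and 10.2% of all tested genes. DESeq2, limma voom and voom with library weights also called none of the 10. The same holds for the authors' deposited table, where the FDR of the 10 genes ran from 0.133 to 1.0. Over all genes DESeq2 called 0.355% higher and 6.16% lower, voom 0.0304% and 0%, and weighted voom 0% and 0%. In the authors' deposited comparison the shares were 0.211% higher and 3.64% lower. Fitted values were higher in Cre for 4 genes and lower for 6, with a median log2 fold change of −0.33 beside −0.39 for all tested genes, of which 60.1% had lower fitted values. Both Cre libraries lay above all 5 Control libraries for 1 gene, Il12rb1, and below all of them for 1 gene, Id2, where the shares over all tested genes were 4.05% and 10.9%. A single gene of 10 in each direction is close to what all tested genes show.

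**Figure D1:**
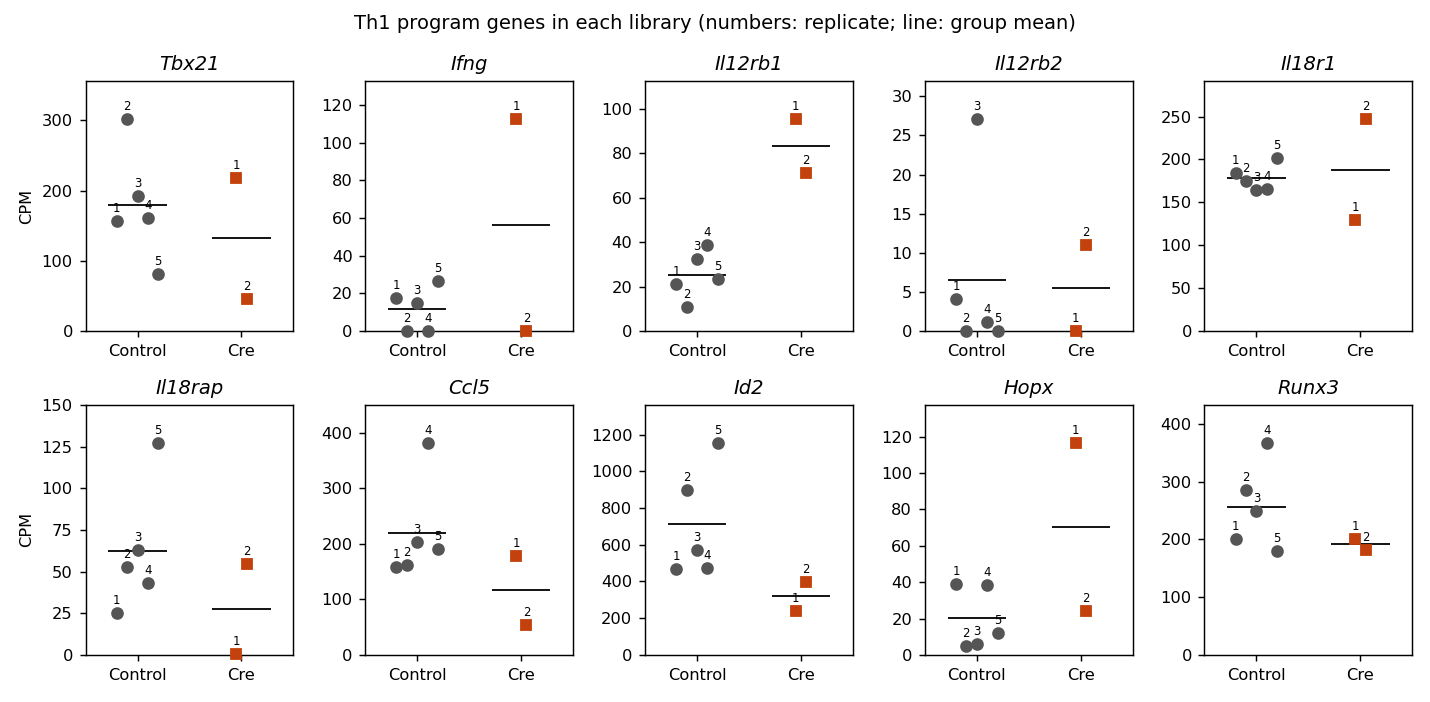
CPM of the 10 Th1 program genes (vertical axes, linear and starting at 0) in 5 Control libraries (circles) and 2 Cre libraries (squares), with the replicate number at each point and a line at each group mean. The groups are separate only for Il12rb1, where Cre lies at 71.0 and 95.3 CPM, and for Id2, where it lies at 239 and 397 CPM.

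The promoter words that the program's own factors read were looked up first, to show what these genes share beyond their names. RefSeq windows on GRCm38.p6 (the mm10 build), from 250 bases before to 50 bases after a gene's start, were found for 8 of the 10 genes, in 12 windows; Ccl5 and Il12rb1 had none. The words searched on both strands were GGTGTGA for the T-box family of T-bet, TGTGGT for the RUNX family and TTCNNNGAA for STAT factors. In the lines below, written 5′ to 3′ on the gene's strand, capitals mark the word, which on the opposite strand reads ACCACA for RUNX.
Il18r1 RUNX word, chr1:40465632-40465657, plus strand: aggtggttctTGTGGTtgagtagaca
Il18rap RUNX word, chr1:40515383-40515408, plus strand: actaaacctaACCACAacccctttct
Runx3 pair of RUNX words, chr4:135120504-135120531, plus strand: tccctcaACCACAgaACCACAaggccag
Ifng STAT word, chr10:118440796-118440815, plus strand: tTTCAGAGAAtcccacaaga
Il12rb2 STAT word, chr6:67376293-67376321, minus strand: gttcccttttTTCTCAGAAccgcactaag
Il18r1 first STAT word, chr1:40465777-40465805, plus strand: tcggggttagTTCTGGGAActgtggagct
Il18r1 other STAT word, chr1:40465844-40465872, plus strand: agtacaggtcTTCCCAGAActgaaagctt
The RUNX word was in 3 of the 12 windows, from 3 genes, beside 16.8% of 32851 windows of all genes. In Il18r1 and Il18rap, which encode the 2 chains of 1 receptor and whose gene models on chromosome 1 are 14507 bases apart, it began 21 and 31 bases after the RefSeq start on which that window is placed. Il18r1 has 3 such windows, each on a start of its own, and its STAT words lie in another of them than its RUNX word. The STAT word was also in 3 windows, from 3 genes, beside 8.3% of all windows, and the T-box word was in none of the 12, beside 3.98%. A match describes letters only and is not a binding site, and no match says only that the letters are not in this window.

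Il12rb1, the interleukin-12 receptor chain that is shared with the interleukin-23 receptor, was higher in both Cre libraries than in any Control library. Its counts were 36, 16, 53, 67 and 38 over Control replicates 1 to 5 and, in the same order, 184 and 103 over the Cre pair. The groups do not overlap. The mean was 25.4 ± 10.8 CPM in Control (SD, n = 5) and 83.2 ± 17.2 CPM in Cre (n = 2), a ratio of 3.28 and a log2 fold change of 1.72 ± 1.03 (SE), which did not pass edgeR (adjusted p = 0.475). The exact two-sided permutation test on its CPM gave p = 0.0952, the smallest p that 2 libraries against 5 allow; of the 10 genes tested in this way, Id2 gave the same p and the others higher ones. The value was 1.49 without Cre replicate 1 and 1.95 without Cre replicate 2, and the authors' deposited table gives a log2 fold change of 1.79 with a p of 0.00838 and an FDR of 0.133. With DESeq2 the p was 0.0444 before adjustment and 0.239 after it. The gene (ENSMUSG00000000791, chromosome 8, 70808449 to 70821424, plus strand) was counted almost wholly (99.8%) in 1 region at its end, between 70820759 and 70821673, and 556 of these 915 bases belong to the 3′ UTR.

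Il12rb2, the signalling chain of the interleukin-12 receptor, which the interleukin-23 receptor does not use, was at the edge of detection. Its counts were 7, 0, 44, 2 and 0 across Control and 0 and 16 in Cre. The groups overlap, and 3 of the 7 libraries had no count (edgeR log2 fold change −0.24 ± 2.51, adjusted p = 0.982). The sign turned without Cre replicate 1 (0.79). Its counted region on chromosome 6, 67291069 to 67292202, overlaps one of Serbp1 on the other strand, which held 850 to 2049 counts per library. The use of strand in counting is not given in the sources used here, so reads of Serbp1 cannot be told apart from those of Il12rb2 with certainty.

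The chains of the interleukin-18 receptor went different ways within the Cre pair. Il18r1, the ligand-binding chain, had 310, 259, 268, 285 and 329 counts across Control and 250 and 358 in Cre. Relative to its mean, the Control spread was the smallest of the 10 genes, at 178 ± 15.5 CPM, and the Cre libraries lay at 130 and 247 CPM, below and above all 5 Control libraries. Its log2 fold change of 0.08 ± 0.46 (edgeR adjusted p = 0.972) turned to −0.0040 with upper-quartile factors and to −0.41 without Cre replicate 2, and was 0.49 without Cre replicate 1. Il18rap, the signalling chain, had 42, 78, 102, 74 and 207 counts across Control and 1 and 79 in Cre. Cre replicate 1 was the lowest of all libraries and Cre replicate 2 lay within the Control range, so the groups overlap. The log2 fold change was −1.16 ± 1.40 (edgeR adjusted p = 0.809), −0.15 without Cre replicate 1 and −6.64 without Cre replicate 2, where the Cre value rests on 1 count. With all libraries it was −3.17 with voom, −3.22 with weighted voom and −2.42 with the replicate number as a block. DESeq2 without Cre replicate 2 called it lower (adjusted p = 0.00947), as it did 7.58% of all genes. Of the 207 counts of Control replicate 5, 74 came from a region at chromosome 1, 40526918 to 40527166, which holds no annotated exon base of the gene and had no count in the other 6 libraries. The remaining 509 counts of Il18rap fell between 40549089 and 40551954, where 2617 of 2866 bases belong to the 3′ UTR.

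Tbx21 encodes T-bet, the factor that defines Th1 cells. Its counts were 264, 448, 314, 279 and 133 across Control and 422 and 66 in Cre. Cre replicate 1 lay within the Control range, at 219 CPM, and Cre replicate 2 below all of it, at 45.5 CPM. The Control mean was 179 ± 79.9 CPM (SD, n = 5) and the log2 fold change −0.42 ± 0.69 (edgeR adjusted p = 0.881). It was −1.96 without Cre replicate 1 and turned to 0.34 without Cre replicate 2. Cre replicate 2 was also the library with the fewest counts of Cd3e, Cd3g and Cd2. The other CD4 T cell markers (Cd3d, Cd4, Cd5, Lat, Trbc1, Trbc2 and Trac) were not lowest there. Cre replicate 2 also had the largest share of tested genes without a count (33.6%). The 10 markers together had their highest sum in that library (6282 CPM), and their part in the level of Tbx21 was not tested. All counts came from 1 region on chromosome 11, 97097822 to 97098771, in the 3′ UTR of the gene and the 249 bases past its end.

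Ifng, the signature cytokine, was counted in 4 of 7 libraries. It had 30, 0, 24, 0 and 43 counts across Control and 217 and 0 in Cre. Cre replicate 1 was the highest of all libraries, at 112 CPM against 26.4 CPM for the highest Control library. Cre replicate 2 had no count, as had Control replicates 2 and 4. The log2 fold change of 2.29 ± 2.07 (edgeR adjusted p = 0.71) rested on Cre replicate 1 (0.89 with voom and 0.91 with weighted voom), and without it the fitted value turned to −7.24, a value against 0 counts that is no bound. The library with most Ifng counts was thus not the library with most Tbx21 counts, which was Control replicate 2, with 0 counts of Ifng. The region counted was on chromosome 10, 118445262 to 118446141, where 631 of 880 bases are 3′ UTR.

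Ccl5, the chemokine RANTES made by effector and memory T cells, had 267, 239, 331, 658 and 309 counts across Control and 344 and 78 in Cre. Cre replicate 1 lay within the Control range and Cre replicate 2 below it. The mean was 219 ± 93.0 CPM across Control and 116 ± 88.0 CPM in Cre, a log2 fold change of −0.89 ± 0.61 (edgeR adjusted p = 0.556). It was −2.01 without Cre replicate 1 and −0.25 without Cre replicate 2. DESeq2 without Cre replicate 1 called it lower (adjusted p = 0.0473), as it did 13.0% of all genes. Control replicate 4, the highest library for Ccl5, also held the most counts of Klrd1 (152) and Klrb1c (28), genes of natural killer cells that some T cells also express. Other markers of these cells were not high there: Klre1 had 1 count, and Klrk1, Tyrobp, Fcer1g and Gzma had 0. Of the 11 markers of natural killer and innate lymphoid cells, 7 had counts in any library, and they summed to 33.8 to 105 CPM across Control and to 79.3 and 146 CPM in Cre, while Ncr1, Klra4, Klra7 and Klra8 were at 0 in all libraries. Cre replicate 2, with the highest of these sums (146 CPM), had the lowest level of Ccl5 (53.8 CPM). That sum came from Klrd1 (105 counts) and Gzma (107 counts) alone. Klrb1c, Klre1, Klrk1, Tyrobp and Fcer1g were at 0 in Cre replicate 2. The part of these markers in the level of Ccl5 was not tested.

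Hopx, a homeodomain-only protein linked to the persistence of Th1 effector cells, had 66, 7, 10, 66 and 20 counts across Control and 225 and 35 in Cre. Cre replicate 1 was above every Control library and Cre replicate 2 within their range. The mean was 20.1 ± 17.2 CPM across Control and 70.4 ± 65.4 CPM in Cre, and the log2 fold change of 1.79 ± 1.30 did not pass edgeR (adjusted p = 0.596). It was 2.55 without Cre replicate 2 and 0.24 without Cre replicate 1. The gene thus shared with Ifng and Il12rb1 its highest level in Cre replicate 1.

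Runx3, the partner of T-bet at Ifng, had 338, 425, 405, 633 and 292 counts across Control and 387 and 264 in Cre. The Cre libraries were alike, at 201 and 182 CPM, and lay in the lower part of the Control range, which was 179 to 367 CPM. The log2 fold change was −0.42 ± 0.44 (edgeR adjusted p = 0.774), and it stayed between −0.52 and −0.25 when any 1 library was left out.

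**Figure D2:**
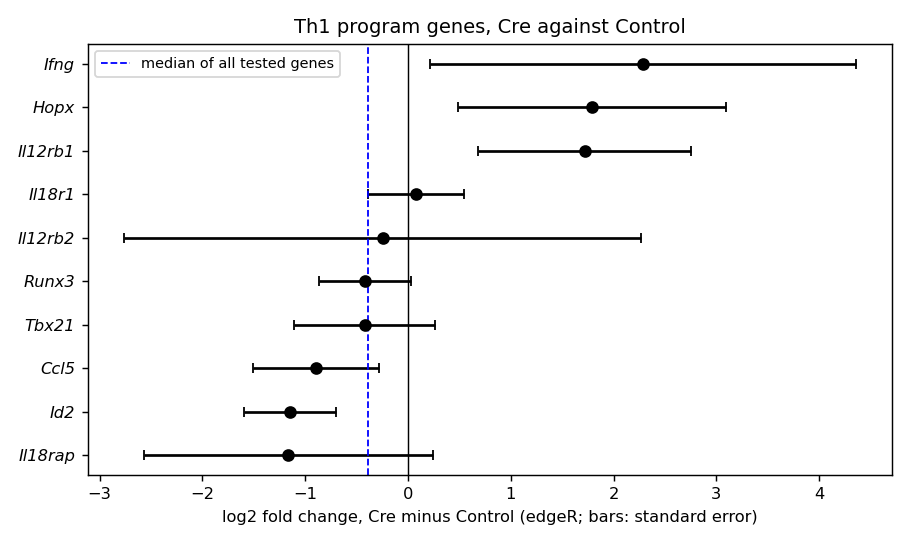
Log2 fold change of each Th1 program gene, Cre minus Control (horizontal axis; points with standard errors from edgeR), with the median of all 9854 tested genes as a dashed line at −0.39. Values run from −1.16 for Il18rap to 2.29 for Ifng, and none passed the test.

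Id2 encodes an inhibitor of E proteins that is needed for effector and Th1 differentiation, and it was the only member at an unadjusted p under 0.05 with edgeR. Its counts were 787, 1334, 933, 817 and 1879 across Control and 461 and 576 in Cre. Both Cre libraries lay below every Control library. The mean was 713 ± 303 CPM in Control (SD, n = 5) and 318 ± 112 CPM in Cre (n = 2), a ratio of Control to Cre of 2.24. The log2 fold change of −1.15 ± 0.45 had an edgeR p of 0.0248 and an adjusted p of 0.422, and it was −0.93 without Control replicate 5, −0.81 without Cre replicate 1 and −1.51 without Cre replicate 2. The authors' deposited table gives it a p of 0.0813 and an FDR of 0.546. Control replicate 5, the highest library for Id2, had 10867 counts of Apoe, against 0 to 38 in the other 6. With Apoe, the 10 macrophage and monocyte markers summed to 6689 CPM there, where the other Control libraries had 14.5 to 50.4 CPM and Cre had 2.59 and 4.83 CPM. That sum rested on Apoe alone. Of the other markers only Lyz2 (12 counts, against 8 to 54 in the other Control libraries) and C1qa (9, against 0 to 14) had counts in Control replicate 5. Csf1r was at 0 in that library, and Adgre1 and C1qc were at 0 in every library. Control replicate 5 also had the highest sum of the 7 fibroblast markers, at 575 CPM. The other Control libraries had 160 to 359 CPM, and Cre replicates 1 and 2 had 276 and 53.1 CPM. Col1a2 (336 counts), Lum (136) and Col3a1 (85) were highest in Control replicate 5. Col1a1, Dcn and Pdgfra were not, and Pdgfrb was at 0 in every library. The part of Apoe, or of macrophages, monocytes or fibroblasts, in the level of Id2 was not tested.

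Id2 was the only member with substantial counts in 2 regions, and these correspond to different annotated 3′ ends. The first, at the gene end (chromosome 12, 25093550 to 25094576, minus strand), holds the last exon of the spliced transcripts Id2-201 and Id2-202, which code for 134 amino acids. The second, an inner region at 25095130 to 25095542, lies wholly in the single exon of Id2-203, a transcript that reads through the intron after the main coding exon and codes for 155 amino acids; only 64 of its 413 bases are in exons of the spliced transcripts. Counts of the gene-end region were 498, 879, 592, 249 and 654 across Control and 390 and 363 in Cre, so that the groups overlap. Counts of the inner region were 289, 455, 341, 568 and 1225 across Control and 71 and 213 in Cre, where both Cre libraries lay below every Control library.

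The gene-end region averaged 360 ± 163 CPM across Control and 226 ± 34.2 CPM over the Cre pair (p = 0.381 by the exact two-sided permutation test). The inner region averaged 354 ± 232 CPM across Control and 91.9 ± 77.9 CPM over the Cre pair (p = 0.0952 by the exact permutation test, the smallest this design allows). The share of Id2 counts in the gene-end region was 63.3%, 65.9%, 63.5%, 30.5% and 34.8% across Control and 84.6% and 63.0% in Cre. Its 95% Wilson intervals, which cover counting error only, ran from 59.9% to 66.6% in Control replicate 1 and from 81.0% to 87.6% in Cre replicate 1. Control thus fell into libraries with most counts at the gene end and libraries with most counts in the inner region, and the groups overlap (exact permutation p = 0.381). With the gene-end region alone in place of the sum, the log2 fold change of Id2 was −0.68 (edgeR adjusted p = 0.592). The comparison of the regions was made after their values had been seen. Whether reads of the inner region come from Id2-203, from unspliced RNA or from the spliced transcripts cannot be told apart from these counts. The spliced transcripts share 64 of its bases.

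**Figure D3:**
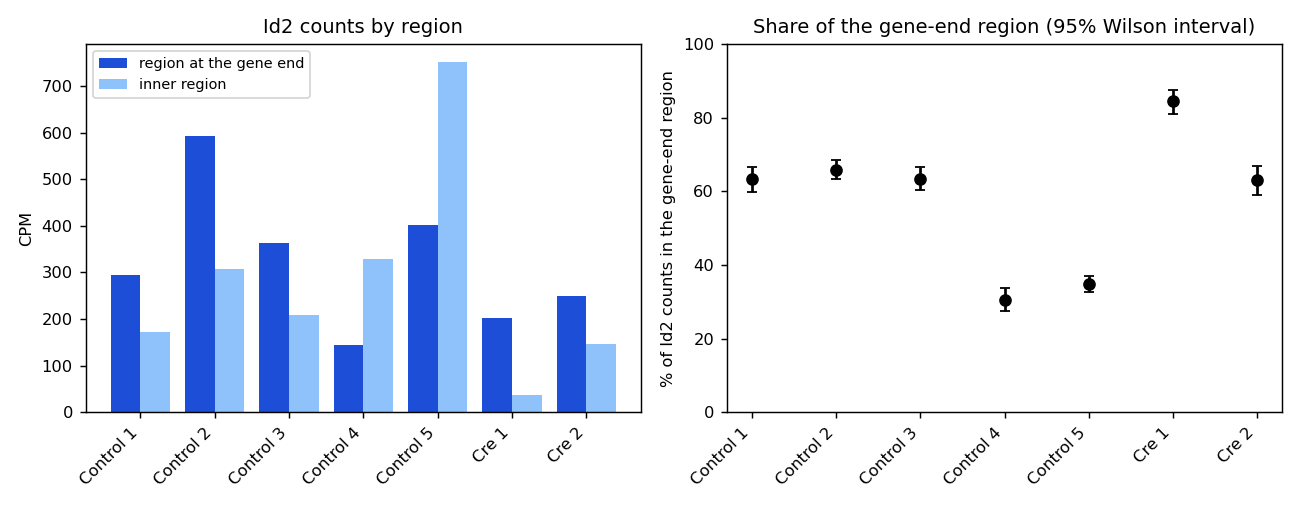
Left, CPM of the 2 counted regions of Id2 in each library (bars from 0). Right, percent of Id2 counts in the gene-end region with 95% Wilson intervals; it lies between 63.0% and 65.9% in 3 Control libraries and Cre replicate 2, at 30.5% and 34.8% in Control replicates 4 and 5, and at 84.6% in Cre replicate 1.

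The 2 Cre libraries differed from each other more than the 5 Control libraries did for 5 of the 10 genes: Ifng, Il18rap, Tbx21, Ccl5 and Il18r1. Over all tested genes this held for 31.0%. On the log2 CPM scale the gap between the Cre libraries was 6.58 for Ifng, with a Control range of 4.43, and 4.98 for Il18rap, with a Control range of 2.11. Cre replicate 1 was higher for 6 genes (Tbx21, Ifng, Il12rb1, Ccl5, Hopx and Runx3) and Cre replicate 2 for 4 (Il12rb2, Il18r1, Il18rap and Id2). Cre replicate 1 was the highest of all 7 libraries for 3 genes and Cre replicate 2 for 1. The order of the libraries was not counted over all tested genes, so these counts cannot be set against such shares. Il12rb1, Id2 and Runx3 were the members whose Cre libraries lay closest, with gaps of 0.47, 0.68 and 0.19.

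**Figure D4:**
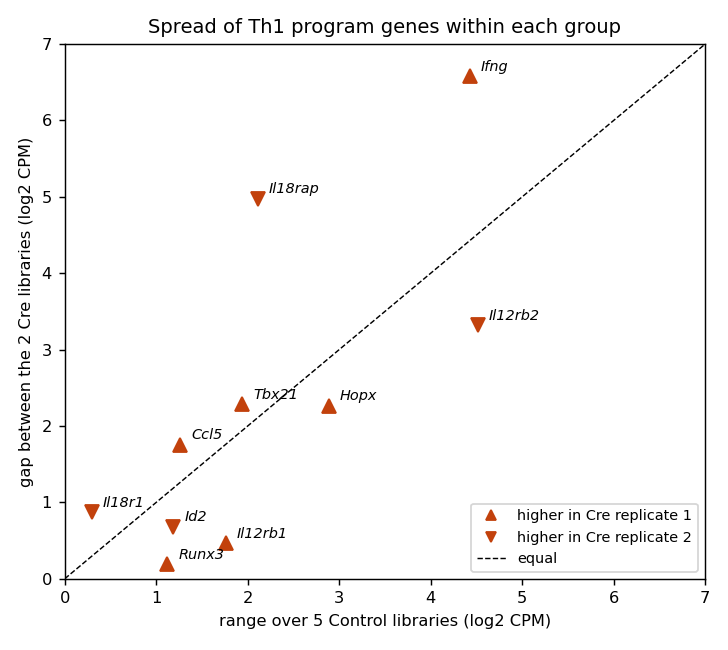
Gap between the 2 Cre libraries (vertical axis) against the full range over the 5 Control libraries (horizontal axis), both in log2 CPM, for each Th1 program gene; triangles pointing up are higher in Cre replicate 1. The 5 genes above the dashed line of equality had a larger gap within Cre than the whole range of Control.

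Other genes of the pathway were taken from 4 lists of 53 genes, of which 45 were tested. None passed edgeR as higher (0 of 45) or lower (0 of 45). At an unadjusted edgeR p under 0.05, 1 was higher and 4 lower, against 1.41% and 10.2% of all tested genes. The median log2 fold change of the 45 genes was −0.48. Over all tested genes the median was −0.39, with lower fitted values for 60.1%, and the lists below are to be read beside these values. DESeq2 called 0 higher and 3 lower (Cd226, Traf6 and Tcf12), set against the shares over all genes given above. Without Cre replicate 1, edgeR called Myd88 lower (adjusted p = 0.0366), as it did 1.74% of all genes.

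In the list of 16 signalling genes, fitted values were higher in Cre for 6 and lower for 10 (median −0.46). Stat4, the transducer of interleukin-12, had 88, 82, 145, 48 and 5 counts across Control and 77 and 181 in Cre, and the groups overlap. Ifngr1, the ligand-binding chain of the interferon-gamma receptor, had 489 ± 218 CPM across Control and 670 ± 1.20 CPM in Cre. Its groups overlap (edgeR adjusted p = 0.738). Tyk2, the kinase bound to the product of Il12rb1, had 110, 84, 105, 46 and 151 counts across Control and 0 and 22 in Cre, below every Control library (edgeR log2 fold change −3.02 ± 1.65, adjusted p = 0.437). Il2rb, a chain of the interleukin-2 receptor, had 1333 ± 445 CPM across Control and 759 ± 33.7 CPM in Cre (adjusted p = 0.429). Traf6, an adaptor below MyD88, had no count in Cre and 0 to 130 counts in Control, so the groups overlap (edgeR adjusted p = 0.422). Its mean was at least 36.0-fold lower when 3 counts over the Cre pair are taken as the limit, which covers counting error only. Of the 45 tested genes of the lists, 3 had no count in either Cre library, as had 1351 of all 9854 tested genes.

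Of 10 transcriptional partners, 6 were tested, with higher fitted values in Cre for 5 and a median of 0.25. Cbfb, the partner subunit of the RUNX proteins, had 196 ± 97.5 CPM across Control and 245 ± 216 CPM in Cre. Batf had 51.5 ± 24.3 and 84.9 ± 52.6 CPM, and Bhlhe40, a regulator of cytokine production in Th1 cells, 47.6 ± 37.9 and 23.5 ± 31.3 CPM. Eomes, the T-box relative of T-bet, had 4 counts in Control replicate 1 and none in the other 6 libraries.

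Of 17 effector and homing genes, 15 were tested, with higher fitted values for 6 and lower for 9 (median −0.62). Cd226, an activating receptor of T and natural killer cells, had 42, 0, 76, 163 and 192 counts across Control and none in Cre (edgeR adjusted p = 0.367, the smallest of these lists). Its mean was at least 64.0-fold lower by the same limit, which covers counting error only. Control replicate 2 was at 0 as well, so the groups overlap. Prf1, perforin, had 76, 0, 110, 0 and 48 counts across Control and none in Cre. Nkg7, a granule protein, had 103 ± 68.1 CPM across Control and 24.4 ± 31.5 CPM in Cre, and the groups overlap (edgeR adjusted p = 0.462). Cxcr3, the chemokine receptor that Tbx21 is known to control, had 102, 8, 54, 168 and 4 counts across Control and 55 and 0 in Cre.

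Regulators that oppose the Th1 fate or partner with ID2 formed a list of 10, of which 8 were tested, with higher fitted values for 2 and lower for 6 (median −0.71). Tcf12, an E protein that ID2 inhibits, had 89, 54, 167, 268 and 87 counts across Control and 22 and 4 in Cre, below every Control library (edgeR log2 fold change −3.46 ± 1.24, adjusted p = 0.405). Tcf7, a factor of naive and memory cells, lay above every Control library in both Cre libraries, at 420 ± 150 CPM across Control and 749 ± 61.6 CPM in Cre (adjusted p = 0.427). Bcl6, of follicular helper cells, had 32.2 ± 30.1 CPM across Control and 1.90 ± 1.71 CPM in Cre, and the groups overlap (edgeR adjusted p = 0.429). Gata3, the Th2 factor, had 222, 202, 73, 100 and 136 counts across Control and 179 and 6 in Cre, and Foxp3, the factor of regulatory T cells, 139, 74, 129, 255 and 54 counts and 109 and 6. Both had, as Tbx21 had, their lowest count of all libraries in Cre replicate 2. The same held for the T cell markers Cd3e, Cd3g and Cd2, but not for Cd3d, Cd4, Cd5, Lat, Trbc1, Trbc2 or Trac. Of all libraries, Cre replicate 2 also had the largest share of tested genes without a count (33.6%). How many of all tested genes were lowest there was not counted. The part of these T cell markers in the levels of Gata3 and Foxp3 was not tested.

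**Figure D5:**
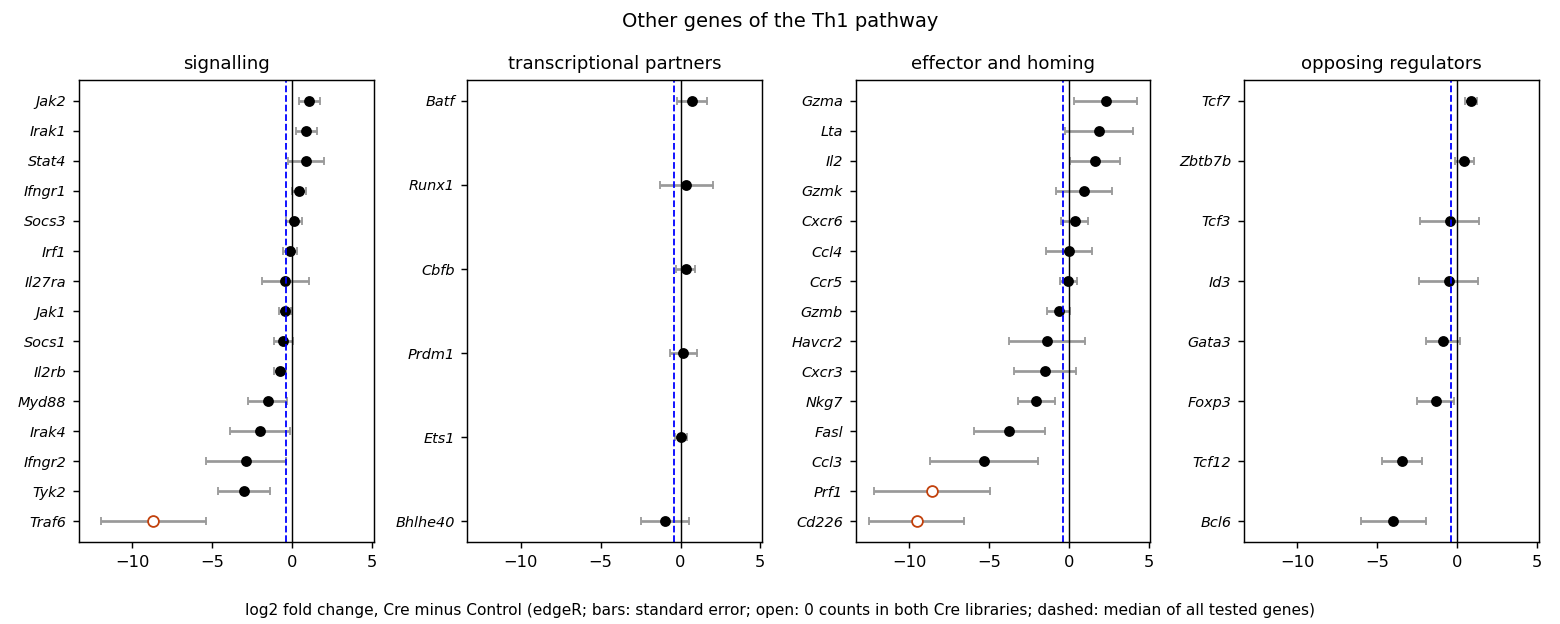
Log2 fold change of the other tested genes of the pathway (1 of the 45 is not drawn), Cre minus Control (horizontal axes; points with standard errors from edgeR), by list; open points had 0 counts in both Cre libraries, so that their fitted value is no bound, and the dashed line is the median of all tested genes. Values run from −9.52 for Cd226 to 2.30 for Gzma, and none passed the test.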

How the data were processed

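The authors deposited raw counts per 3′ region for 116000 regions in 7 libraries, per the file headers. The authors' second table gives, per the file headers, DESeq2 p-values, a fold ratio and its log2 for Cre against Control, and a GC percent that was not used. HISAT2 2.1.0, FastQC 0.11.8, DESeq2 and the build mm10 are named in the submitters' processing notes. Which tool counted the regions, with which strand setting and annotation, is not given in the sources used here. Regions were summed per gene and placed on GENCODE M21, where 99.4% of 55104 shared genes had the same position. No 2 libraries agreed within sampling noise.

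Genes were tested with edgeR 4.0.16 in R 4.3.3 (TMM, robust quasi-likelihood F-test, two-sided, filterByExpr minimum count 10 and total 15, group as the only term, threshold 0.05), and standard errors come from F. The procedure was tested on simulated data, where the changes set were larger than any fitted for the members in the main fit. It thus does not show whether changes of the members' size would be found. Log2 CPM gaps used TMM and a prior count of 2. Alternatives used DESeq2 1.42.0 and limma 3.58.1. The members, lists and naming rule were chosen with earlier results of these data known. The rule names all 10 members, per list up to 3 genes of smallest p with at least 20 CPM, and 7 fixed genes, of which Stat4, Ifngr1, Eomes, Cxcr3, Gata3 and Foxp3 are given and 1 is not reported here.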

Additional observations from a re-analysis of the deposited data

Results flagged for a closer look

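In 13 sets of Control values (the 10 genes, and for Id2 the 2 regions and their share), the library at one end was examined for standing apart from the other 4 by Dixon's criterion, which chance meets in about 1 of 20 groups. Il12rb2 stood at 27.1 CPM in Control replicate 3, against 0 to 4.15 CPM in the other 4. Ccl5 stood at 382 CPM in Control replicate 4, against 158 to 204 CPM in the others. The inner region of Id2 stood at 753 CPM in Control replicate 5, against 171 to 329 CPM in the others.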

How the results depend on the processing

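No Th1 program gene was called under any alternative planned for edgeR, DESeq2 or voom. In repeats of DESeq2 with 1 library left out, chosen after seeing the data, 0 to 1 members were called lower: Ccl5 without Cre replicate 1 (adjusted p = 0.0473) and Il18rap without Cre replicate 2 (adjusted p = 0.00947), where 13.0% and 7.58% of all genes were called lower. Other genes of the pathway called lower numbered 3 with DESeq2, 2 to 11 with DESeq2 and 1 library left out (11 without Cre replicate 1, and 4 without Cre replicate 2 or Control replicate 3), where 4.14% to 13.0% of all genes were called lower, and 0 to 1 with edgeR and 1 library left out, where the 1 was Myd88 without Cre replicate 1 (1.74% of all genes); the cause was not tested. Il18r1 turned sign with upper-quartile factors (−0.0040), voom (−0.024) and weighted voom (−0.090), and ranged from −0.41 to 0.49 with edgeR and 1 library left out (−0.34 with DESeq2 without Cre replicate 2). The same ranges were −7.24 to 3.30 for Ifng (DESeq2 −6.43 without Cre replicate 1), −6.44 to 0.79 for Il12rb2 (DESeq2 0.86 without Cre replicate 1) and −1.96 to 0.34 for Tbx21 (DESeq2 0.41 without Cre replicate 2). Ifng and Il12rb2 did not pass the stricter filter (10 counts in 5 libraries), and Il12rb2 was not tested without Control replicate 3. With 1 Cre library, that library is assumed to vary as Control does. The other 6 members kept their sign throughout. Size factors and upper-quartile factors shifted the median of all genes by 0.10 and −0.10. With the replicate number as a block, Il18r1 turned to −0.044 and Il12rb2 to 0.53, Tbx21 was −1.16, Il12rb1 2.39 and Il18rap −2.42, and none of the 10 or of the other pathway genes was called. The deviations of same-numbered libraries from their group means had r = 0.003 and 0.002 over genes. With 2 Cre libraries these deviations mirror each other, so the check cannot decide whether the numbers pair the libraries. Ifng, Il12rb2 and Eomes had 0 counts in several libraries, where up to 3 counts remain possible.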

Other observations

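Over the 7 libraries, the 3151 protein-coding genes at 50 CPM or more outside the members were ranked by Pearson's r of log2 CPM with Tbx21 and with Ifng, as a description. The 5 most like Tbx21 were Ostc (r = 0.979), Hbp1 (0.974), Smad3 (0.971), Copz1 (0.970) and Rbm28 (0.970), and 48 genes had an r above 0.9. Smad3, a transducer of TGF-beta, had 91, 200, 85, 48 and 1 counts across Control and 240 and 0 in Cre. The 5 most like Ifng were Slc25a3 (r = 0.956), Desi2 (0.955), Npepps (0.952), Tpi1 (0.936) and Cblb (0.936), and 11 genes had an r above 0.9. Tpi1, a glycolytic enzyme, had 182, 63, 229, 103 and 169 counts across Control and 336 and 53 in Cre. These r values rest on few libraries, which also share their depth across genes, and no p is given.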
